A study of Mus musculus with 10 samples.

Results

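The genes described here are 40 mouse genes of glycolysis, its side branches and the response to low oxygen. They were chosen by name, with earlier results of these data known, from 19096 genes that had a probe on the array. They cover glucose uptake, the enzymes from glucose to pyruvate, lactate production and export, the makers of fructose-2,6-bisphosphate, the pentose phosphate pathway, the hypoxia-inducible factor (HIF) alpha subunits with the enzymes that destabilise them, and known HIF targets outside glycolysis. Where a gene had several probes the brightest over the 10 arrays stood for it, and all 40 of those probes passed the filter on dim spots, so that each gene was tested. RNA had been taken from the whole lungs of 5 Lkb1f/f mice labelled wild type (WT) and from 5 lung tumours of CCSPiCreLkb1f/f mice (SCC, squamous cell carcinoma), all 13 months old, of strain B6.129 and untreated. In CCSPiCre mice the recombinase is driven from the Club Cell Secretory Protein promoter, so that Lkb1 (Stk11) is deleted in airway epithelium, while both groups carry the floxed alleles. In bulk RNA of whole lung and whole tumour, fewer cells of a type and less RNA per cell cannot be told apart. The comparison asks how tumours that arise after Lkb1 loss differ from control lung, and the deletion and the tumour state cannot be told apart in it. Each RNA had been labelled with Cy3 and hybridised to its own single-colour Agilent whole-mouse-genome array, and the values below are log2 intensities after quantile normalisation, so that a difference of 1 is a 2-fold change.

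Glycolysis splits glucose into pyruvate and yields ATP without oxygen, and lactate dehydrogenase then turns pyruvate into lactate so that the pathway can go on. Many of its genes are targets of HIF, a factor whose alpha subunit is hydroxylated by prolyl hydroxylases and destroyed while oxygen is present, and is stable when oxygen is low. LKB1 is the kinase that activates AMPK, the cell's sensor of low energy, and many squamous carcinomas are known for high glucose uptake.

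A few features of the arrays touch every value below. No probe was paired with Stk11 here, so that the deletion itself was not checked. The samples matched their labels by tissue. Krt5, Krt14, Trp63 and Lypd3 were well above background on each array and were higher in SCC by 7.44 to 11.35. The mean level of 9 squamous markers, these among them, was 3.89 to 4.52 in WT and 10.12 to 13.84 in SCC. All 9 were called higher, but Krt6a, Dsg3, Pkp1, Sprr1b and Ivl passed the filter on dim spots through SCC alone. The calls of those genes are no check of the labels, and their dim WT spots lower the WT mean. The lowest SCC mean level, 10.12, belonged to SCC replicate 2, and the other 4 tumours lay at 13.49 to 13.84. That tumour also stood nearer to WT lung in endothelial markers (12.07, against 11.10 to 11.43 in the other tumours and 13.38 to 13.53 in WT), in neutrophil markers (10.03, against 11.97 to 12.13 and 9.20 to 10.14) and in cell division genes (10.10, against 11.25 to 11.53 and 8.45 to 9.19). SCC replicate 5 had 90.2% of its probes well above background, against 71.0% to 74.4% on the other 9 arrays. Of the 3 slides used, slide 1 carried WT replicates 1 to 4, slide 2 carried WT replicate 5 beside SCC replicates 1 to 3, and slide 3 carried the last pair of tumours.

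Among the 40 genes, 19 were higher in SCC and 2 were lower, by a call that asked for a limma adjusted p below 0.05 over all probes tested together with at least a 2-fold difference. The 19 were the glucose transporter gene Slc2a1, 8 genes of enzymes on the way from glucose to pyruvate, Ldha, the lactate exporter Slc16a3, Fbp1, Pgd, Hif1a, Egln3, Car9, Car12, Ndrg1 and Ankrd37. The 2 were Pfkfb3 and Epas1. Car12 passed the filter on dim spots through SCC alone, and without it 18 of 39 were higher. Of the 30374 probes tested on the array 22.9% were called, 9.92% higher and 13.0% lower, beside 47.5% higher and 5.0% lower among the 40 genes. Since the 40 were chosen with earlier results of these data known, the shares describe these genes and not the pathways as a whole. The 5 SCC values lay wholly above or wholly below the 5 WT values for 26 of the 40 genes (65.0%), beside 37.4% of all probes tested. The median difference over the 40 genes was 0.98, beside a median of -0.09 over all probes tested, and 31 of the 40 differences were positive. Of the 19 genes not called, 10 passed the adjusted p with less than a 2-fold difference and 9 did not pass it. The p-values measure the spread between these samples.

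**Figure D1:**
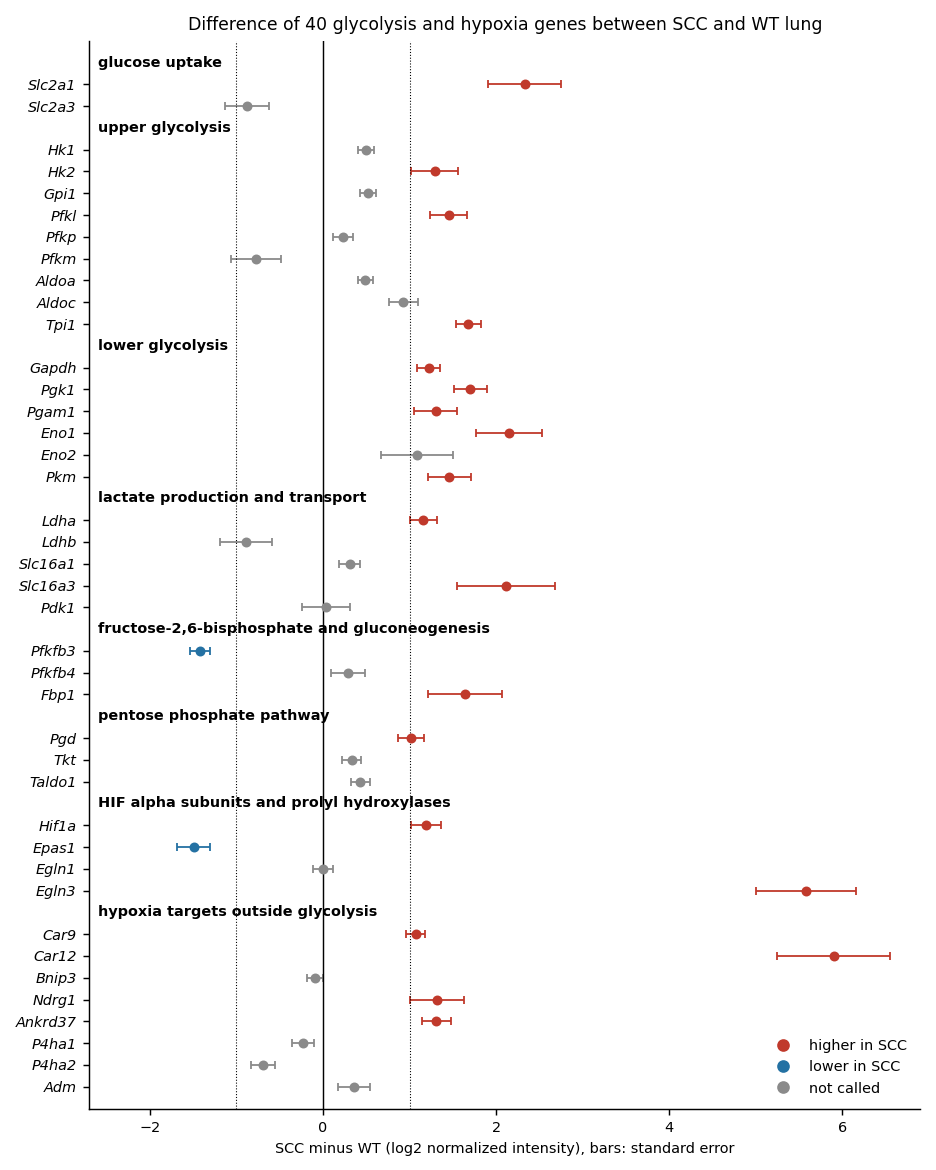
Difference between SCC and WT in log2 normalised intensity (horizontal axis) for each of the 40 genes, grouped by role; points are fitted differences with their standard errors from limma on 5 arrays a group, and dotted lines mark a 2-fold change. Of the 6 genes of lower glycolysis 5 were called higher. Egln3 differed by 5.58, and the point of Car12 (5.90) rests on WT arrays where it was dim and lay at 2.47 after another background correction.

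The promoters of several of these genes hold the short word that HIF recognises, and examples are shown, chosen after the matches were seen, from genes called higher that are known HIF targets or encode a HIF subunit. Hk2, Gapdh, Pgam1, Pkm and Ankrd37 were also higher and held the word, and are not printed. Promoter sequences from 250 bases before to 50 bases after the start were taken from RefSeq (GRCm38.p6), and 37 of the 40 genes matched. Slc2a3, Epas1 and Ndrg1 did not match. The core word ACGTG was searched on both strands, and stands in capitals below, where CACGT is the same word read on the other strand and CACGTG holds it on both strands with 4 shared letters. Slc2a1, Pgk1, Ldha, Slc16a3, Egln3, Car9 and Hif1a were higher in SCC, and Bnip3 is shown for contrast because its level did not pass the test. All stretches run 5′ to 3′ in the direction of the gene and end before its start.
Slc2a1 (chr4:119108684-119108738, + strand): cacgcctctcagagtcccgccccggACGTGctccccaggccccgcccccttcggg
Pgk1 (chrX:106186925-106186998, + strand): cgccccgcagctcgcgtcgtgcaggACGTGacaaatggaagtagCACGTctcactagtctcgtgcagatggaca
Ldha (chr7:46845634-46845799, + strand): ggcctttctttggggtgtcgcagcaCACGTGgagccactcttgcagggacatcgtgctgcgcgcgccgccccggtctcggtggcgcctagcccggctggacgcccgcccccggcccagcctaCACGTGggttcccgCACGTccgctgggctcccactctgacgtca
Slc16a3 (chr11:120949015-120949066, + strand): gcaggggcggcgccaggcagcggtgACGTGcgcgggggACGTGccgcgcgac
Egln3 (chr12:54204074-54204124, - strand): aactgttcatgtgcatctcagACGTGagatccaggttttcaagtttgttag
Car9 (chr4:43506983-43507025, + strand): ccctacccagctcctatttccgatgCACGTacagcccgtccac
Hif1a (chr12:73907707-73907826, + strand): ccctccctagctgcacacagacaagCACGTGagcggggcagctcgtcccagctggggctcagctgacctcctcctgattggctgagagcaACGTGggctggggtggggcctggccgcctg
Bnip3 (chr7:138909584-138909639, - strand): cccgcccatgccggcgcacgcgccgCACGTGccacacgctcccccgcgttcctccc

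Counted back from the start to its left base, the word stood at -36 in Slc2a1 and at -18 in Car9, and Ldha held it in 3 places upstream of its start. Of the 37 genes with a promoter, 22 (59.5%) held ACGTG in at least 1 promoter, beside 21.8% of all 27025 genes in the table. Among the 18 genes called higher that had a promoter, 12 (66.7%) held it, and among the 18 not called 9 held it. So did Pfkfb3, in both of its promoters, the single lower gene with a promoter. The promoters of Tpi1, Fbp1 and Car12, all higher in SCC, held neither ACGTG nor the related word GCGTG (in 32.4% of all promoters) in this window, which says nothing of HIF at these genes. The word contains a CpG, and the 51 promoters of these 37 genes had a median of 20 CpG in 300 bases, against 7 over all 32851 promoters. A match is a stretch of letters and was not tested as a binding site.

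Glucose enters most cells through GLUT1, encoded by Slc2a1, and many neurons and leukocytes use GLUT3, encoded by Slc2a3. Slc2a1 read 11.58, 11.72, 11.69, 11.59 and 11.66 in WT replicates 1 to 5, and 14.41, 12.15, 14.53, 14.36 and 14.42 in SCC replicates 1 to 5. The groups did not overlap, and 4 of the tumours lay within 0.17 of each other while SCC replicate 2 stood 2.21 below the nearest of them. Slc2a1 was 5.02-fold higher in SCC (log2 difference 2.33, SE 0.419, limma adjusted p = 0.00141), and 2.78 higher on the log2 scale without SCC replicate 2. Slc2a3 lay at 9.13 to 9.86 in WT and 7.70 to 9.12 in SCC, a difference of -0.88 that passed the adjusted p (limma, 0.0172) but was less than 2-fold. The log2 ratio of Slc2a1 to Slc2a3, taken within each array, was 3.20 higher in SCC (SE 0.274), with an exact permutation p of 0.00794 that is the smallest 5 against 5 arrays can give (adjusted p = 0.0139 over 14 pairs of related genes).

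Upper glycolysis spends ATP to turn glucose into a pair of triose phosphates, and 3 of its 9 genes were higher in SCC. Hk2, the hexokinase isozyme of muscle and many tumours that traps glucose as glucose-6-phosphate, read 10.92, 11.60, 11.64, 11.29 and 11.27 in WT, and 12.73, 11.60, 13.11, 12.79 and 12.90 in SCC. Its groups overlapped through SCC replicate 2 alone, and its difference was 1.29 (SE 0.275, limma adjusted p = 0.00372). Pfkl, the liver-type phosphofructokinase of the committed step, read 10.19, 10.45, 10.45, 10.64 and 10.50 in WT, and 12.14, 11.04, 11.98, 12.18 and 12.13 in SCC. No SCC array was as low as WT, and the difference was 1.45 (SE 0.217, limma adjusted p = 0.000483). Tpi1, which interconverts the triose phosphates, read 13.98, 13.98, 13.77, 13.89 and 13.99 in WT, and 15.53, 15.09, 15.84, 15.82 and 15.74 in SCC. It had the lowest adjusted p of the 19 higher genes (limma, 2.31e-05), with a 3.20-fold difference (log2 1.68, SE 0.147).

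The other 6 genes of upper glycolysis moved by less than 2-fold. Gpi1 (0.52), Aldoa (0.49), Aldoc (0.93) and Hk1 (0.50) passed the adjusted p in the higher direction (limma, 0.00116 to 0.00173), and none of the 4 overlapped between groups. Hk1 had 6 probes, and for the pair of dimmer ones with differences of 1.06 and 1.14 the call was higher. Pfkm, the muscle phosphofructokinase, differed by -0.77 (limma adjusted p = 0.049) with overlapping groups. Pfkp, the platelet form, differed by 0.23 (limma adjusted p = 0.121), and its other probe by -0.94 (limma adjusted p = 0.0692). The phosphofructokinase isozymes therefore changed unequally: the log2 ratio of Pfkl to Pfkm was 2.22 higher in SCC and that of Pfkp to Pfkl 1.21 lower, each with the smallest exact permutation p of 0.00794.

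Lower glycolysis runs from glyceraldehyde-3-phosphate to pyruvate and recovers ATP, and 5 of its 6 genes were higher in SCC with no overlap between groups. Gapdh, the dehydrogenase that is often used as a reference gene, read 14.01, 14.17, 14.03, 14.05 and 13.89 in WT, and 15.25, 14.87, 15.57, 15.38 and 15.19 in SCC. Its difference was 1.22 (SE 0.129, limma adjusted p = 6.45e-05), and a further Gapdh probe gave 1.25. Pgk1, the kinase that makes ATP from bisphosphoglycerate, read 13.80, 13.88, 13.77, 13.80 and 13.72 in WT, and 15.54, 14.75, 15.84, 15.76 and 15.58 in SCC. It was 3.25-fold higher (log2 1.70, SE 0.189, limma adjusted p = 8.29e-05), and 1.63 on the log2 scale by its other probe.

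Pgam1, the phosphoglycerate mutase, read 14.49, 14.43, 14.31, 14.50 and 14.40 in WT, and 15.84, 14.71, 16.05, 16.03 and 16.00 in SCC, a difference of 1.30 (SE 0.243, limma adjusted p = 0.00176). Eno1, the widespread enolase, read 9.07, 9.26, 9.07, 9.42 and 8.91 in WT, and 11.53, 9.70, 11.66, 11.96 and 11.63 in SCC. Its 4.44-fold difference (log2 2.15, SE 0.381, limma adjusted p = 0.0013) was the largest of the glycolytic enzymes among the 40 genes. Eno2, the enolase of neurons and neuroendocrine cells, lay at 6.57 to 7.44 in WT and 6.46 to 8.86 in SCC, with a difference of 1.09 that did not pass (limma adjusted p = 0.0515), while without SCC replicate 2 it was 1.5 and passed (limma adjusted p = 0.000281). Pkm, the pyruvate kinase of most tissues outside liver and red cells, read 11.76, 12.17, 12.07, 12.23 and 11.93 in WT, and 13.71, 12.54, 13.92, 13.78 and 13.49 in SCC. Its splice forms were not told apart, and the difference was 1.46 (SE 0.244, limma adjusted p = 0.000947). Gapdh, Tpi1, Pgk1, Pgam1, Eno1, Pkm, Aldoa and Ldha have close copies or pseudogenes in the mouse genome, and cross-hybridisation of their probes was not tested.

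**Figure D2:**
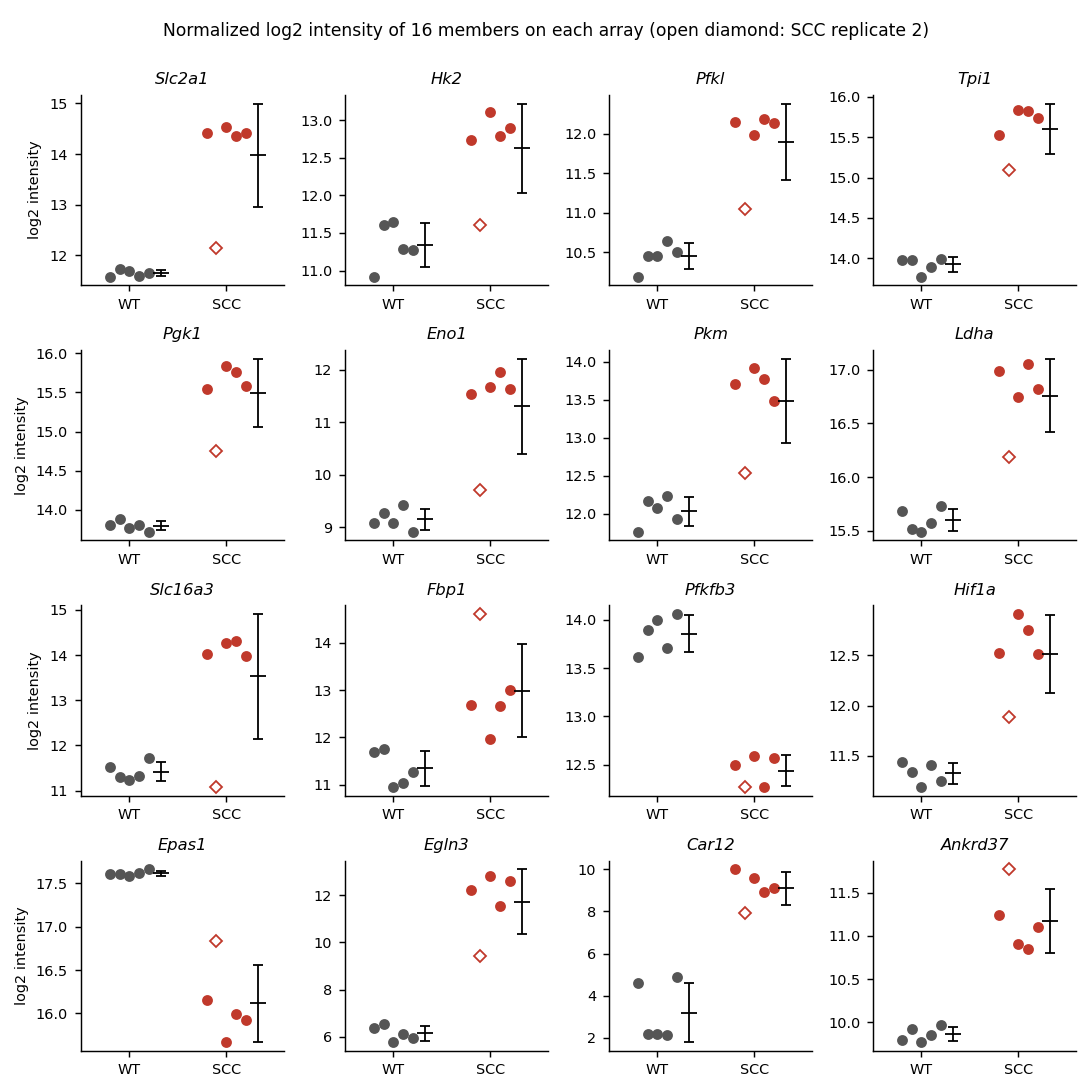
Normalised log2 intensity (vertical axes, each panel on its own scale) of 16 of the called genes on the 5 WT and 5 SCC arrays; each marker is an array, the open diamond is SCC replicate 2, and black bars give mean and SD. In 12 of the 14 panels with higher SCC values the diamond is the lowest tumour, in Fbp1 and Ankrd37 it is the highest, and in Epas1 it is the tumour nearest to WT.

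Among the genes of lactate production and transport, Ldha and Slc16a3 were higher in SCC. Ldha, whose product favours the making of lactate from pyruvate, read 15.68, 15.52, 15.49, 15.57 and 15.73 in WT, and 16.99, 16.19, 16.75, 17.05 and 16.82 in SCC. It was 2.24-fold higher (log2 1.16, SE 0.158, limma adjusted p = 0.000277), and its other probe differed by 1.77. Ldhb, the heart form, differed by -0.89 (limma adjusted p = 0.0328), with SCC replicate 2 at 15.03, above all 5 WT arrays, and the other tumours at 13.39 to 13.72, below all of them. Without that tumour Ldhb was 1.18 lower on the log2 scale and was called. The log2 ratio of Ldha to Ldhb was 2.05 higher in SCC (exact permutation p = 0.0159, adjusted p = 0.0247 over 14 pairs).

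Slc16a3 encodes MCT4, the lactate exporter of glycolytic cells, and Slc16a1 encodes the widespread transporter MCT1. Slc16a3 read 11.53, 11.29, 11.23, 11.32 and 11.72 in WT, and 14.02, 11.08, 14.26, 14.32 and 13.97 in SCC. The other 4 tumours lay 2.25 or more above the highest WT array and SCC replicate 2 lay below each WT array, so that the groups overlapped. The difference of 2.11 (SE 0.566) passed (limma adjusted p = 0.0119), and without that tumour it was 2.72. Slc16a1 lay at 12.59 to 13.11 in WT and 12.96 to 13.35 in SCC (difference 0.31, limma adjusted p = 0.0579). Pdk1, the kinase that shuts off pyruvate dehydrogenase, differed by 0.04 (limma adjusted p = 0.909), with WT replicate 1 at 9.42 and the other 4 WT arrays at 10.71 to 10.97. Its other probe differed by 0.64 with no overlap (limma adjusted p = 0.000888), less than 2-fold.

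Around the phosphofructokinase step, Pfkfb3 was lower in SCC and Fbp1 was higher. Pfkfb3 encodes an enzyme that makes fructose-2,6-bisphosphate, the main activator of phosphofructokinase, and is a known HIF target. It read 13.62, 13.90, 14, 13.71 and 14.06 in WT, and 12.50, 12.27, 12.59, 12.27 and 12.57 in SCC. The 5 tumours, SCC replicate 2 included, lay within 0.32 of each other and below each WT array, and Pfkfb3 was 2.67-fold lower in SCC (log2 -1.42, SE 0.119, limma adjusted p = 1.86e-05). Of its dimmer probes, with differences of -0.43 and -0.74, neither was called, and the mean of its 3 probes was not called. Pfkfb4 differed by 0.29 (limma adjusted p = 0.242), with SCC replicate 2 at 12.91, below WT, and the other tumours at 13.61 to 13.98, above WT. Without that tumour the Pfkfb4 difference was 0.48 and passed the adjusted p (limma, 0.00164), under 2-fold.

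Fbp1 encodes fructose-1,6-bisphosphatase, which runs the phosphofructokinase step backwards in gluconeogenesis. Its values were 11.69, 11.76, 10.95, 11.04 and 11.27 in WT, and 12.68, 14.61, 11.97, 12.67 and 13.00 in SCC. The groups did not overlap, and here SCC replicate 2 was the highest tumour. Fbp1 was 3.12-fold higher (log2 1.64, SE 0.430, limma adjusted p = 0.0105), and 1.24 on the log2 scale without that tumour.

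The pentose phosphate pathway diverts glucose-6-phosphate to NADPH and ribose, and 1 of its 3 members was called. Pgd, the NADPH-producing phosphogluconate dehydrogenase, read 12.64, 12.64, 12.75, 12.63 and 12.57 in WT, and 13.75, 13.16, 13.90, 13.98 and 13.52 in SCC. It lay just past the 2-fold line (log2 1.02, SE 0.151, limma adjusted p = 0.000458), and leaving out WT replicate 5 or any of SCC replicates 1, 3 and 4 brought it below that line. Its other probe differed by 1.45. Tkt (0.33) and Taldo1 (0.43), the enzymes that link the pathway back to glycolysis, passed the adjusted p without overlap between groups but were under 2-fold, and a dimmer Tkt probe differed by -0.23 (limma adjusted p = 0.559). Of the other pentose phosphate genes on a list drawn up for comparison, 6 were tested, none was higher and H6pd was lower, by 1.41 on the log2 scale (limma adjusted p = 4.45e-05). H6pd is the glucose-6-phosphate dehydrogenase of the endoplasmic reticulum. G6pdx, the cytosolic enzyme that opens the pathway, lay just under the 2-fold line without overlap between groups (0.99, limma adjusted p = 9.26e-05), and Pgls (0.38, limma adjusted p = 0.00278) and Rpe (0.38, limma adjusted p = 0.0217) also passed the adjusted p in the higher direction. These 3 were named after their values were seen.

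The subunit genes Hif1a and Epas1 moved in opposite directions, and Hif3a, outside the 40, differed by 0.22 with overlapping groups (limma adjusted p = 0.602). Hif1a, the subunit behind most glycolytic HIF targets, read 11.44, 11.34, 11.19, 11.41 and 11.25 in WT, and 12.52, 11.89, 12.91, 12.75 and 12.51 in SCC, a 2.28-fold difference (log2 1.19, SE 0.174, limma adjusted p = 0.00042). Epas1, which encodes HIF-2alpha and is abundant in lung endothelium and alveolar epithelium, read 17.60, 17.60, 17.58, 17.62 and 17.66 in WT, and 16.15, 16.84, 15.67, 15.99 and 15.93 in SCC. The WT lungs were within 0.08 of each other, and Epas1 was 2.82-fold lower in SCC (log2 -1.49, SE 0.190, limma adjusted p = 0.000184), with -2.45 by its other probe. The log2 ratio of Hif1a to Epas1 was 2.69 higher in SCC (SE 0.369, exact permutation p = 0.00794). Endothelial markers were lower beside it: 10 of 11 were called lower, with a median difference of -2.22 and mean levels of 13.38 to 13.53 in WT and 11.10 to 12.07 in SCC. Among alveolar type 1 cell markers 4 of 5 were called lower. The other, Aqp5, went the opposite way by 0.64 (limma adjusted p = 0.0233), under 2-fold and without a value on WT replicate 1. Of 6 alveolar type 2 cell markers 0 passed both the fold and the limma adjusted p, and 4 had an adjusted or unadjusted p under 0.05, with a median difference of -0.62 and mean levels of 15.30 to 15.40 in WT and 14.56 to 15.24 in SCC. Their part in the Epas1 difference was not tested. These are RNA levels, and HIF-1alpha is set largely through protein stability, which the arrays do not measure.

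The prolyl hydroxylase PHD3, encoded by Egln3, is both a brake on HIF and one of its targets. Egln3 read 6.35, 6.53, 5.77, 6.10 and 5.93 in WT, and 12.22, 9.41, 12.83, 11.53 and 12.60 in SCC. The lowest tumour was 2.88 above the highest WT lung, and the difference was 47.9-fold (log2 5.58, SE 0.577, limma adjusted p = 5.64e-05), and 4.25 on the log2 scale after normexp background correction. Egln1, the main hydroxylase PHD2, read 10.46 to 10.80 in WT and 10.52 to 10.90 in SCC, with a difference of 0.00 (SE 0.118, limma adjusted p = 0.977). The log2 ratio of Egln3 to Egln1 was thus 5.58 higher in SCC (SE 0.579, exact permutation p = 0.00794), and 4.26 higher after normexp.

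Of the 8 HIF targets outside glycolysis 4 were higher in SCC. Car12, a carbonic anhydrase of the cell surface, read 4.59, 2.20, 2.18, 2.16 and 4.88 in WT, and 10, 7.94, 9.58, 8.92 and 9.09 in SCC. It was well above background on 2 of the 5 WT arrays and on each SCC array, so that it passed the filter through SCC alone. Its fitted difference of 5.90 (limma adjusted p = 7.98e-05) depends on how dim spots are treated, was 2.47 after normexp, and is no measure of the size. Car9, the carbonic anhydrase used as a marker of hypoxia, read 7.28, 7.30, 7.19, 7.45 and 7.21 in WT, and 8.21, 8.14, 8.63, 8.37 and 8.43 in SCC. Its difference was 1.07 (SE 0.110, limma adjusted p = 5.38e-05), the SCC arrays lay within 0.49 of each other, and the other background correction brought it to 0.65, under 2-fold. The log2 ratio of Car9 to Car12 changed by -4.83, and by -1.82 after the other background correction; its size is not settled, since Car12 was dim on 3 WT arrays.

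Ndrg1, a stress-responsive gene of differentiating epithelium, read 12.26, 12.31, 12.41, 12.24 and 12.32 in WT, and 13.72, 12.30, 14.05, 14.14 and 13.91 in SCC. Its groups overlapped through SCC replicate 2 alone, and the difference was 1.32 (SE 0.314, limma adjusted p = 0.00664). Ankrd37, a small ankyrin repeat gene known as a HIF-1 target, read 9.80, 9.92, 9.77, 9.85 and 9.97 in WT, and 11.24, 11.77, 10.90, 10.85 and 11.10 in SCC. Here SCC replicate 2 was the highest array, and the difference was 1.31 (SE 0.166, limma adjusted p = 0.000177). The remaining 4 genes were not called. Bnip3, which drives removal of mitochondria, differed by -0.09 (limma adjusted p = 0.444), with the promoter shown above, and Adm, the vasodilator adrenomedullin, by 0.36 (limma adjusted p = 0.128). The collagen prolyl hydroxylase genes P4ha1 and P4ha2 had differences of -0.23 (limma adjusted p = 0.16) and -0.69 (limma adjusted p = 0.0024), the latter without overlap between groups.

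Within each array, 14 pairs of related genes were compared by the exact permutation test, and 10 passed after adjustment over the 14, Car9 and Car12 with their dim WT spots among them. Without that pair 9 of 13 passed, adjusted over the 13. Beside those given above, the ratio of Eno1 to Eno2 was 1.06 higher in SCC, that of Pfkfb4 to Pfkfb3 1.70 higher, and that of Aldoa to Aldoc changed by -0.44 (exact permutation p = 0.0317, adjusted p = 0.0444). That last pair no longer passed with scaling to the 75th percentile (-0.16, adjusted exact permutation p = 0.159), with normexp background correction (-0.35, adjusted exact permutation p = 0.0555), or without any of WT replicates 3 and 5 and SCC replicates 1, 3, 4 and 5 (adjusted exact permutation p of 0.0556 to 0.0778). The pairs that did not pass were Hk2 and Hk1 (0.79, adjusted exact permutation p = 0.0599), Pfkp and Pfkm (1.01, adjusted exact permutation p = 0.0505), Slc16a1 and Slc16a3 (-1.79, adjusted exact permutation p = 0.0555) and P4ha1 and P4ha2 (0.46, adjusted exact permutation p = 0.0714). Without SCC replicate 2, 14 of the 14 passed.

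**Figure D3:**
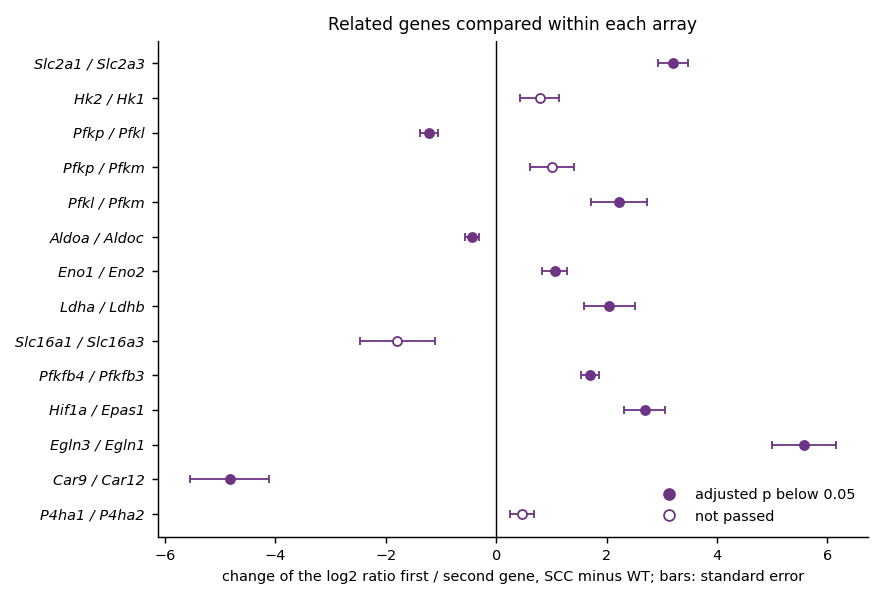
Change between WT and SCC of the log2 ratio of related genes measured on the same array (horizontal axis), with its standard error, for 14 pairs; filled points had an adjusted exact permutation p below 0.05. The ratio of Egln3 to Egln1 rose by 5.58 (4.26 after normexp background correction) and that of Hif1a to Epas1 by 2.69. The open points are the 4 pairs that did not pass, and the Car9 to Car12 point rests on dim WT spots.

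The 5 tumours differed among themselves mainly through SCC replicate 2. Averaged over the 19 higher genes, the level was 11.04 to 11.22 on the WT arrays, 13.27, 13.38, 13.30 and 13.26 on SCC replicates 1, 3, 4 and 5, and 12.26 on SCC replicate 2. That tumour was the lowest of the 5 for 17 of the 19 genes and still lay above each WT array for 16 of them, the exceptions being Hk2, Slc16a3 and Ndrg1. For both lower genes it lay below WT. It was the tumour with the lowest squamous, neutrophil, macrophage and cell division marker levels, and with the highest levels of endothelial, alveolar type 1 and type 2, erythroid, striated muscle and fibroblast markers. The part of these in its values was not tested. Without it 21 genes were called higher, with Aldoc and Eno2 added, and 4 lower, with Pfkm and Ldhb added, while the calls over all probes went to 11.5% higher and 15.3% lower, and the median difference of the 19 went from 1.45 to 1.65. Neutrophil markers were called higher in 5 of 9 cases over the 5 tumours (mean levels of 9.20 to 10.14 in WT and 10.03 to 12.13 in SCC). Cell division genes were called higher in 9 of 10 cases and macrophage markers in 3 of 9, beside 9.92% of all probes. The macrophage list was mixed: under 2-fold, Marco (-0.75) and Csf1r (-0.50) passed the adjusted p in the lower direction and Mrc1 (0.65) in the higher. Of the neutrophil markers Ltf, lactoferrin, which glandular epithelium also makes, differed most (8.80, with 18.10 to 18.29 on each tumour). Without Ltf, left out after its values were seen, the mean was 9.12 to 10.21 in WT, 9.0 on SCC replicate 2 and 11.20 to 11.39 on the other tumours.

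**Figure D4:**
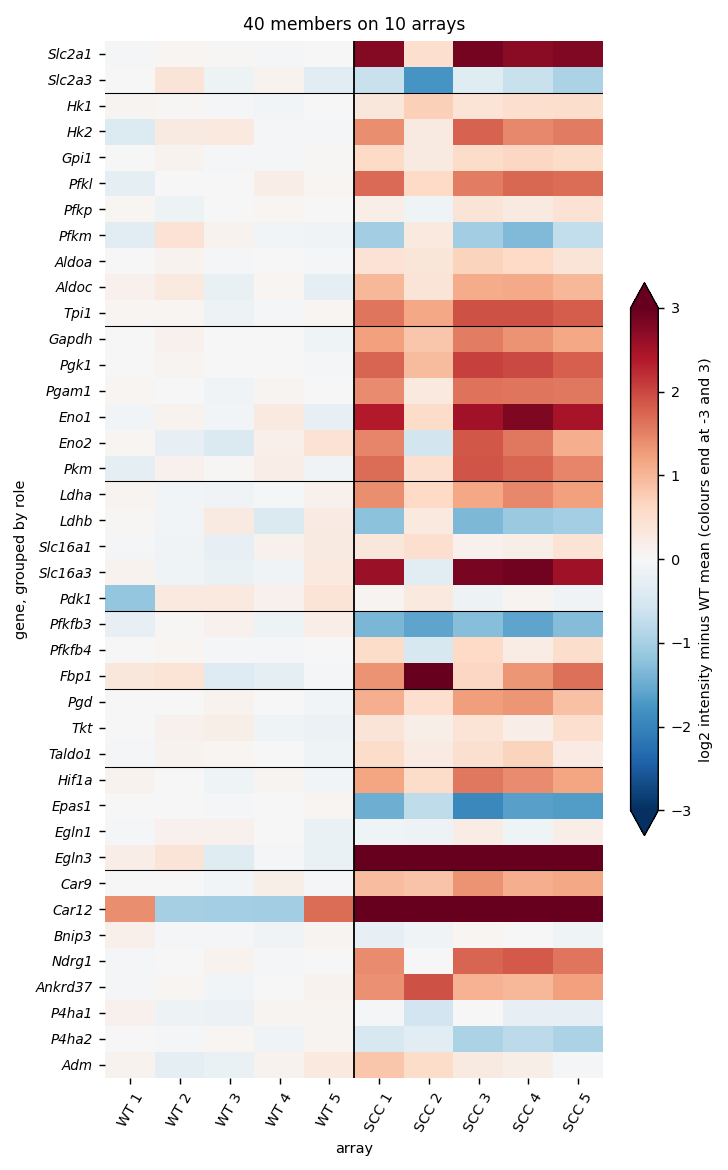
Log2 intensity of the 40 genes (rows, grouped by role) on the 10 arrays (columns) after subtraction of each gene's WT mean; red is higher and blue lower, and colours end at 3 in either direction. SCC replicate 2 is paler than the other tumours in most rows and darker in some, among them Fbp1, Ankrd37, Slc2a3, Hk1 and P4ha1. Egln3 and Car12 lie past the end of the colours on each SCC array, and Pfkfb3 and Epas1 are blue on each SCC array.

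Slide and group overlapped only on slide 2. There, each of SCC replicates 1 to 3 lay above WT replicate 5 for 24 of the 40 genes and below it for 7, beside 33.4% and 36.2% of all probes tested. The 24 included 17 of the 19 higher genes and the 7 both lower genes, an order that the calls on these same arrays largely fix. With slide as a fixed term the differences of the 19 were positive, from 0.92 to 5.56, and 18 were still at least 2-fold, but 7 passed (limma adjusted p from 0.0149 to 0.411 over the 19). With slide as a random block 20 were higher and 2 lower. The 7 that passed with the fixed term were Tpi1, Gapdh, Pgk1, Egln3, Car9, Car12 and Ankrd37, and Pfkfb3 and Epas1 also passed. Over all probes 9.84% were called in that fit, in which a single WT array is set against 3 SCC arrays.

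Pathway genes outside the 40 were read in 3 further lists, of which the pentose phosphate list stands above. Of 29 other genes of glycolysis and pyruvate use that were tested, 2 were higher, 2 were lower and the median difference was 0.20, so that 13.8% were called beside 22.9% of all probes. The higher ones were Pcx, the pyruvate carboxylase (1.48, limma adjusted p = 4.38e-05), and Hk3, a hexokinase of myeloid cells (2.69, limma adjusted p = 0.0106), which overlapped between groups through SCC replicate 2 at 7.71. Without that tumour the Hk3 difference was 3.44 (limma adjusted p = 1.32e-06). The lower ones were Eno3 (-1.93) and Pgam2 (-2.77), the muscle isozymes of enolase and phosphoglycerate mutase. Striated muscle markers were lower beside them, 7 of 10, with mean levels of 9.67 to 12.30 in WT and 7.73 to 9.18 in SCC, and their part was not tested.

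Of 27 other HIF regulators and targets tested, 4 were higher and 3 lower (25.9% called, beside 22.9% of all probes), with a median difference of 0.19. Stc2 (2.65), a stress-induced glycoprotein hormone, Ero1a (1.86), an oxidase of disulphide formation, and Hmox1 (1.36), the haem oxygenase, were the largest of the higher ones, and P4hb was the fourth. Vegfa, the endothelial growth factor and a classical HIF target, fell by 2.01 on the log2 scale (limma adjusted p = 8.08e-05), with no overlap between groups. Plod2 (-2.37), a collagen lysyl hydroxylase, and Rora (-1.30), a nuclear receptor, were also lower.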

How the data were processed

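Total RNA (400 ng a sample) from the lungs or lung tumours was labelled with Cy3 and hybridised to Agilent whole-mouse-genome 4 x 44K arrays by the authors, who read the scans with Feature Extraction (version 12 per the labels). The deposited scanner files hold a background-subtracted processed intensity for each spot on a linear scale. The deposited matrix holds log2 values that the authors quantile-normalised; it matched the values recomputed here (lowest r 0.99995) and was used as an alternative.

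Controls and spots flagged as outliers were dropped, log2 processed intensities were averaged over the spots of each probe, and the 41174 probes were quantile-normalised. Probes were named through the accession in the scanner files and a RefSeq table, which paired 68.5% of them with a gene. A probe was tested when it was well above background on at least 4 of 5 arrays of a group. SCC was compared with WT by limma 3.58.1 (R 4.3.3) without covariates, with Benjamini-Hochberg adjustment over all 30374 probes, in place of the analysis of variance of the methods. Related genes were compared by exact two-sided permutation of the per-array log ratio. The fit was tested on simulated data with independent normal values, no slide effect and no outlying array. That test therefore says nothing of how slide or SCC replicate 2 affects the calls. Groups came from the sample titles, and slides from the scanner file names. The 40 genes, the other gene lists and the tests were chosen with earlier results of these data known. All 40 genes are accounted for, and values on each array are given for those called. Alternatives covered normalisation, background, filter, slide, replicate number, weights, the methods' t-test, probe choice and each array left out. The precision is limited by 5 arrays a group.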

Additional observations from a re-analysis of the deposited data

Results flagged for a closer look

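For each of the 40 genes the 5 WT and the 5 SCC arrays were examined for an array that stood apart, by the gap to its nearest neighbour as a share of the group's whole range, with 0.71 as the limit for 5 arrays. Of 80 groups 13 passed, where chance flags about 1 in 20, and 11 of the 13 were on SCC replicate 2. This tumour stood below the other 4 for Slc2a1 (share of the range 0.929), Slc16a3 (0.891), Pgam1 (0.848), Pfkl (0.828), Gpi1 (0.822), Eno1 (0.808), Aldoc (0.793), Ndrg1 (0.772), Hk2 (0.75) and Pgk1 (0.721), and above them for Ldhb (0.797). Among the WT arrays, replicate 1 stood below the others for Pdk1 (0.836) and replicate 2 for Pfkp (0.804).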

How the results depend on the processing

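As reported, 19 of the 40 genes were higher, 2 lower, 12 genes of the other pathway lists were called and 10 of 14 pairs of related genes passed (9 of 13 without Car9 and Car12, whose WT spots were dim). With slide as a fixed block 7 were higher and 7 genes of the other lists were called, and 2988 probes were called in all, against 6954. In that fit WT replicate 5 alone stands against 3 tumours. Slide as a random block gave 20 higher, 2 lower and 12 other genes, with a block correlation of -0.0174. Lower genes numbered 4 with array quality weights, 4 without SCC replicates 2 and 5, 6 by adjusted p alone and 1 with the mean of all probes of a gene. By adjusted p alone 32 genes of the other lists and 14878 probes were called, the latter 49.0% of all probes tested (22.4% higher and 26.6% lower). Normexp background correction brought the probes called to 3969. Leaving out each array in turn gave 18 to 21 higher genes, 2 to 4 lower genes, 12 to 15 genes of the other lists and 9 to 14 pairs, with the highest of each without SCC replicate 2.

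The replicate number as a block (replicate block) left 19 higher and 2 lower genes, and 0 pairs could pass, since sign flips of 5 differences cannot give a p below 0.0625. The numbers did not pair the samples, whose deviations correlated at -0.103 to 0.009. Slide as a block was not run for the pairs. Differences near 0 changed sign: Pfkp (-0.35 with the mean of its probes), Pdk1 (-0.32 with slide as a fixed block and within slide 2, -0.04 with array weights, and -0.24 to 0.14 with each array left out, negative without WT replicate 1 and without SCC replicate 2 at -0.02) and Egln1 (-0.10 with array weights, -0.01 with normexp and without SCC replicates 2 and 5, and -0.05 to 0.04 with each array left out). None of the 21 called genes changed sign under an alternative, and 12 lost their call with slide as a fixed block, Pfkfb3 with the mean of its probes, Car9 with normexp, and Pgd without any of 4 arrays; Car12 was not tested under the strict filter. The causes were not tested. Scaling to the 75th percentile moved the median of all probes from -0.09 to 0.032 and the share of higher among the calls from 43.3% to 53.2%, and kept the 21 calls.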
